A study of Mus musculus with 10 samples.

Results

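The neuronal intermediate filament genes are Nefh, Nefm and Nefl, which encode the heavy, medium and light neurofilament subunits, Ina, which encodes alpha-internexin, and Prph, which encodes peripherin. These 5 genes were taken by symbol from the 56691 genes of the deposited count table. The family was chosen because Nefh was higher after restraint in these same libraries, so the fold changes of its members are described here and not tested, and they support nothing beyond themselves. All 5 members had enough counts to stay among the 18440 genes tested.

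Intermediate filaments are rope-like polymers that give cells tensile strength. In neurons the light subunit forms the core of the filament together with alpha-internexin or peripherin. The medium and heavy subunits carry long tails that project from it, are heavily phosphorylated in axons and help to space the filaments and set the diameter of large axons. Alpha-internexin belongs mainly to neurons of the central nervous system. Peripherin is best known from neurons that send axons out of it, and from some neurons of the brainstem.

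The study took the ventral tegmental area (VTA), a midbrain region rich in dopaminergic neurons, from male C57BL/6 mice. The restraint group (5 libraries, titled Stess in the labels) had been restrained for 30 min, an acute stressor in which the animal cannot move, and the control group (5 libraries, titled Normal) had not. Both groups are labelled as wild type and both carried the NBL10-HA construct in dopaminergic neurons, and the series' design text says that their ribosome-bound mRNA was enriched, while the labels give the molecule as total RNA, so how far a level stands for these neurons and how far for the whole tissue is not settled. The promoter or Cre line that drives the construct and the age of the mice are not given in the sources used here. No label says whether each library came from 1 mouse, so spreads and p-values cover the differences between these libraries.

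Library totals ran from 56082358 to 86584968 counts. Levels per library are given as CPM, the count of a gene scaled to the library total after TMM normalization, which aligns libraries on their shared genes. Th (tyrosine hydroxylase), the defining marker of dopaminergic neurons, was present in every library, at a mean of 477 ± 65.3 CPM in the restraint group and 411 ± 78.6 CPM among controls. Gfap, an intermediate filament gene of astrocytes, stood at 2470 ± 316 CPM after restraint and 1920 ± 121 CPM in control libraries (SD, n = 5 each), so RNA of other cells was present in both groups. With such mixed RNA, more cells of a type and more RNA per cell cannot be told apart. Restraint 1 lay at -92.1 on the leading principal component (22.6% of variance in log2 CPM), where the other libraries lay between -4.08 and 19.2, so the members' fold changes and mean levels and the 3 highest correlations between members are also given without it. Control 2 stood far from the other controls for 12 of the 166 members, list genes and markers examined. Among counts of 1 to 30, the percentage that were even was 80.01 to 84.76 after restraint and 76.77 to 79.75 in controls, a library measure in which the groups did not overlap. Even counts arise where both mates of a read pair are counted. With all counts halved, an alternative chosen after seeing the data, the log2 fold change of Nefh was 0.57 (0.58 with counts as deposited). Halving scales every library alike, so it could hardly move a fold change and does not address the difference between the groups in even counts.

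The promoter table from RefSeq (GRCm38.p6) held 2 of the 5 members, Ina and Prph, an abundant and the scarcest member. The 250 bases before each start are shown to set the upstream sequence of the abundant and the scarce gene side by side. Both lie on the plus strand, at chr19:47014431-47014680 for Ina and chr15:99054924-99055173 for Prph. Capitals mark matches to 5 motifs searched on both strands, the STAT site TTCNNNGAA, the cyclic AMP response element TGACGTCA, the AP-1 site TGANTCA, the TATA box TATAAA and the GC box GGGCGG. No match overlapped another in either window.
Ina: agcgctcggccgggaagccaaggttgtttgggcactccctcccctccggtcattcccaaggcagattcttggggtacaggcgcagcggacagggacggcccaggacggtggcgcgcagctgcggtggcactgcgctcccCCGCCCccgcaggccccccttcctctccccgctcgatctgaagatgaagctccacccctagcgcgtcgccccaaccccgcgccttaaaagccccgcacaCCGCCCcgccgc
Prph: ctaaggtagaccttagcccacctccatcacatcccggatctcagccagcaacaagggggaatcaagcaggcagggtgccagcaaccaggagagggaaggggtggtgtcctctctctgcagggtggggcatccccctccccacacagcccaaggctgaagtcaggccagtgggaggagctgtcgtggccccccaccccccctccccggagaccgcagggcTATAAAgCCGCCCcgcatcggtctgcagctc

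The Ina window held 2 GC boxes, both on the minus strand, and no TATA box. The Prph window held 1 TATA box, whose first base lies 31 bases before the start, and 1 GC box on the minus strand 1 base after it. Of 32851 windows of the same length, 12.4% held the TATA box and 32.7% the GC box. The letters of the STAT site were in neither window, against 7.02% of all windows, nor were those of the AP-1 site (6.75%) or the cyclic AMP response element (1.55%). G and C made up 70.8% of the Ina window and 65.2% of the Prph window, against a median of 52.4%.

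Nefh, the gene whose level chose the family, lies on chromosome 11 from 4888754 to 4898064 on the minus strand (GRCm39, the build of the deposited coordinates), with 4 exons of 3994 bases in all. It had 392, 602, 566, 437 and 482 CPM in restraint 1 to 5, against 346, 301, 323, 369 and 324 CPM in control 1 to 5. Every restraint library lay above every control library. The narrowest gap was between restraint 1 at 392 CPM and control 4 at 369 CPM. The means were 496 ± 87.5 CPM after restraint and 333 ± 25.8 CPM in control libraries (SD, n = 5 each), a log2 fold change of 0.58 ± 0.11 (SE) or 1.49-fold. Without restraint 1 it was 0.65 ± 0.10. The coefficient of variation between libraries was 17.7% after restraint and 7.76% in controls. As background, 1.25% of all genes tested had all 5 restraint libraries above all 5 controls, and 1.36% had all 5 below. Nefh was the 1 member of 5 with such separation, and since the members were chosen from this contrast, nothing is read from that count.

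Nefm, on the minus strand of chromosome 14 from 68320039 to 68362295, encodes the medium subunit. It had 486, 698, 634, 565 and 591 CPM in restraint 1 to 5, against 572, 571, 465, 611 and 478 CPM in control 1 to 5. The groups overlapped, with restraint 1 below 3 of the 5 controls. Its log2 fold change was 0.14 ± 0.10 (SE), with a 95% interval of -0.06 to 0.34, and 0.21 without restraint 1.

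Nefl, on the plus strand of the same chromosome from 68321312 to 68326544, encodes the light subunit on which filament assembly depends. Its levels were 597, 872, 837, 722 and 817 CPM in restraint 1 to 5, against 790, 669, 833, 802 and 663 CPM in control 1 to 5. Restraint 1 was the lowest and restraint 2 the highest of all 10 libraries, and the controls lay between them. The log2 fold change was 0.03 ± 0.10 (SE), with a 95% interval of -0.17 to 0.23, and 0.12 without restraint 1. The interval for Nefh, from the contrast that chose it, was 0.37 to 0.78.

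Ina lies on the plus strand of chromosome 19 from 47003137 to 47013766. It had 349, 339, 344, 441 and 294 CPM in restraint 1 to 5, against 309, 425, 342, 309 and 338 CPM in control 1 to 5. Each group had 1 library well above its others, restraint 4 and control 2, and the groups overlapped throughout. Its log2 fold change was 0.04 ± 0.11 (SE), with a 95% interval of -0.17 to 0.25. It was 0.05 without restraint 1, -0.05 without restraint 4 and 0.13 without control 2.

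Prph, on the plus strand of chromosome 15 from 98953055 to 98956859, was by far the scarcest member. It had 19.4, 18.6, 24.4, 13.3 and 22.9 CPM in restraint 1 to 5, against 13.6, 14.8, 16.9, 18.0 and 19.6 CPM in control 1 to 5. Restraint 4 was the lowest of all 10 libraries, and 4 of 5 restraint libraries lay above the control median. The log2 fold change was 0.25 ± 0.15 (SE), with a 95% interval of -0.04 to 0.54, and 0.26 without restraint 1. The value was positive, as for Nefh, but its interval included 0.

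**Figure D1:**
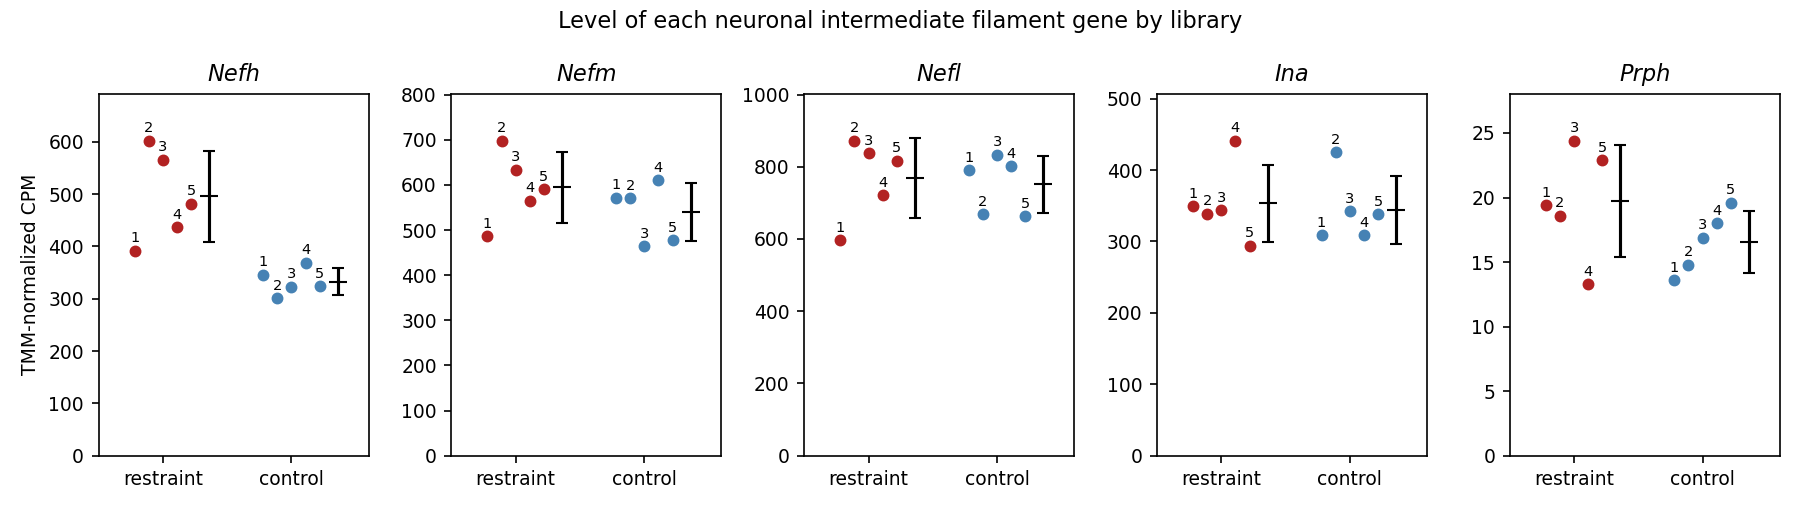
Level of each of the 5 genes in TMM-normalized CPM (vertical axes, each from 0), with 1 point per library labelled by its replicate number, restraint left and control right. Horizontal marks and bars give the mean and SD of 5 libraries. The Nefh points of the restraint group, 392 to 602 CPM, all lie above the controls at 301 to 369 CPM, and the groups overlap for the other 4 genes.

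Across all 18440 genes tested, the quasi-likelihood test of edgeR called 1 gene higher (0.00542%) and 3 lower (0.0163%) once p was adjusted by the Benjamini-Hochberg method, with 0.05 as the threshold. No member was called with edgeR (0 of 5), and 1 of 5, Nefh, had an unadjusted p under 0.05, against 5.64% of all genes higher and 6.04% lower at that level. With DESeq2, 1 member (Nefh) was called higher, against 1.16% of the genes it tested called higher and 1.6% lower. These counts come from the contrast that chose the family, and nothing is read from them. Nefh had a fold change above that of 96.6% of all genes, Prph above 87.1%, Nefm above 76.1%, Ina above 58.1% and Nefl above 57.4%, where the median over all genes was -0.002 on the log2 scale. The 5 genes together took 0.189 to 0.249% of all counts after restraint and 0.179 to 0.209% in controls.

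Ratios of raw counts between members within a library need no normalization between libraries. There were 0.656, 0.689, 0.677, 0.606 and 0.590 Nefh counts per Nefl count in restraint 1 to 5, against 0.438, 0.450, 0.388, 0.460 and 0.488 in control 1 to 5. The groups were apart, and each group was narrow, at 0.644 ± 0.0438 after restraint and 0.445 ± 0.0369 in control libraries (SD, n = 5 each). Restraint 1 had the lowest Nefh level of its group but its middle ratio, and its Nefl level was the lowest of the group too. Of all genes tested other than Nefl, with Nefh among them, 0.195% had counts per Nefl count that were higher in all 5 restraint libraries than in all 5 controls. Set against Nefm, the ratio of Nefh was 0.773 to 0.893 after restraint and 0.527 to 0.694 in controls, again with no overlap. Of all genes tested other than Nefm, again with Nefh among them, 0.0542% had all 5 restraint libraries above all 5 controls. Both ratios rest on the contrast that chose the family and are given without a test.

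The other ratios did not separate the groups. Nefm counts per Nefl count were 0.775 ± 0.0363 after restraint and 0.724 ± 0.107 in control libraries (SD, n = 5 each), with control 3 the lowest at 0.559 and control 2 the highest at 0.854. Ina counts per Nefl count were 0.471 ± 0.117 after restraint and 0.466 ± 0.107 in control libraries (SD, n = 5 each). Prph counts per Nefl count were 0.0259 ± 0.00583 after restraint and 0.0224 ± 0.00457 among controls. Of the 5 ratios computed, those with Nefh as the numerator were the ones in which the groups were apart.

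**Figure D2:**
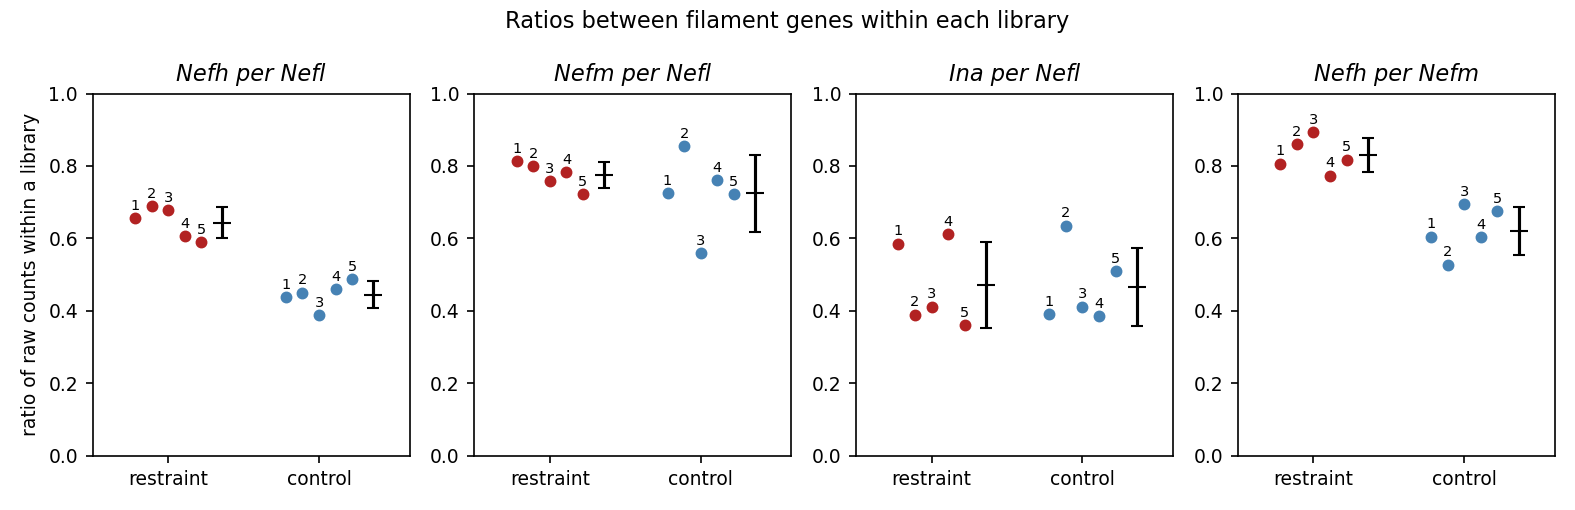
Ratio of raw counts of one filament gene to another within each library (vertical axes from 0 to 1), 1 point per library labelled by replicate number, restraint left and control right, with mean and SD. Nefh per Nefl spans 0.590 to 0.689 after restraint and 0.388 to 0.488 in controls, and Nefm per Nefl and Ina per Nefl overlap between the groups.

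Levels of different genes can be compared only per length, and here the gene models matter. Nefl and Nefm are neighbours on opposite strands of chromosome 14. The deposited counts list the exons of Nefm by gene and not by transcript. They were read as 2 forms, a compact one with 3 exons of 3334 bases and a long one whose last exon, from 68320039 to 68322419, reaches across the start of Nefl. The 3 exons were matched by length to a transcript of an earlier GENCODE release, and the long form was inferred from the remaining exons. This last exon covers 1108 of the 1147 bases of the first Nefl exon (68321312 to 68322458). Strands were not told apart in the counting and reads that touch 2 genes were left out, so reads inside these 1108 bases went to neither gene. They make up 32.8% of the exon bases of Nefl and 19.2% of those of Nefm. Another 456 bases (14.1%) of Ina are shared with Nt5c2, a nucleotidase gene on the opposite strand, while Nefh and Prph share none.

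**Figure D3:**
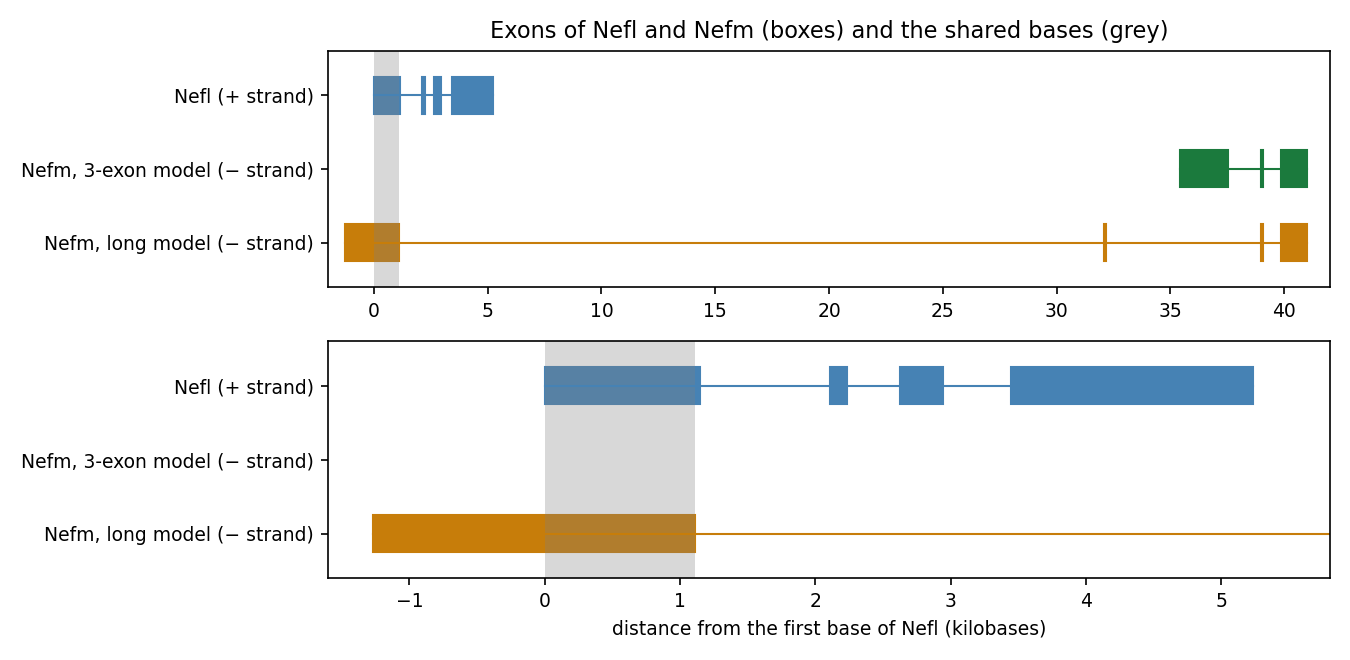
Exons (boxes) of Nefl and of both Nefm models by distance in kilobases from the first base of Nefl; the lower panel enlarges the Nefl end. The grey band marks the 1108 bases shared by the first exon of Nefl and the last exon of the long Nefm model.

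With the deposited exon lengths, Nefl was the most abundant member in all 10 libraries, at 228 ± 32.9 CPM per kilobase after restraint and 222 ± 23.5 CPM per kilobase in control libraries (SD, n = 5 each). Prph was the least abundant in all 10, at 9.87 ± 2.16 CPM per kilobase after restraint and 8.31 ± 1.21 CPM per kilobase in control libraries (SD, n = 5 each). Between them, Ina stood at 109 ± 16.5 CPM per kilobase after restraint and 106 ± 14.7 in controls, and Nefm at 103 ± 13.7 CPM per kilobase after restraint and 93.3 ± 11.1 in control libraries (SD, n = 5 each). Ina and Nefm did not differ beyond their spread, with Nefm the higher in 3 of 5 restraint libraries and 2 of 5 controls. Nefh stood at 124 ± 21.9 CPM per kilobase after restraint and 83.3 ± 6.47 in control libraries (SD, n = 5 each). Pooled over both groups, the mean levels without restraint 1 were 230 CPM per kilobase for Nefl, 108 for Ina, 104 for Nefh, 99.7 for Nefm and 9.02 for Prph, against 225, 108, 104, 98.1 and 9.09 with it. These pooled means do not show what restraint 1 does to the means of the restraint group. For Nefh, restraint 1 had 98 CPM per kilobase, against 151, 142, 109 and 121 in restraint 2 to 5. Nefh was above Nefm in 5 of 5 restraint libraries and 1 of 5 controls, and above Ina in 3 of 5 restraint libraries and 0 of 5 controls.

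This middle order depends on the length used. When bases shared with another gene were taken out and Nefm was given its 3-exon model, a choice made after the data were seen, the mean levels over 10 libraries were 335 CPM per kilobase for Nefl, 170 for Nefm, 125 for Ina and 104 for Nefh. Nefm then stood above Ina and above Nefh in all 10 libraries. Which Nefm model these neurons use was not tested. Nefl stayed first and Prph last in every library with each length used. With these lengths Nefh made up 15.9 ± 1.19% of the members' summed level after restraint and 11.8 ± 0.746% in controls, and Nefl 43.4 ± 2.17% after restraint and 46.7 ± 3.38% in control libraries (SD, n = 5 each).

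How the members vary together inside a group was not used to choose them. Each library's log2 CPM was set against its group mean, and pairs of members were compared over the 10 libraries with an exact two-sided permutation within groups, adjusted over the 10 pairs by the Benjamini-Hochberg method. Nefh and Nefl had Pearson r = 0.84 (exact permutation p = 0.00562, adjusted 0.0549) and Spearman rho = 0.71 (exact permutation p = 0.0462, adjusted 0.154), n = 10. Nefh and Nefm had r = 0.79 (exact permutation p = 0.011, adjusted 0.0549) and rho = 0.85 (exact permutation p = 0.00715, adjusted 0.0715). Neither pair passed the adjustment. Without restraint 1 alone r was 0.70 for Nefh and Nefl and 0.65 for Nefh and Nefm, and without restraint 1 and restraint 2 these values were 0.66 and 0.53. Within the restraint group these 2 libraries held the lowest and the highest level of Nefh, Nefm and Nefl alike.

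Nefm and Nefl had r = 0.61 (exact permutation p = 0.0896, adjusted 0.235) and rho = 0.54 (exact permutation p = 0.142, adjusted 0.352), but r was 0.32 without restraint 1 alone and 0.72 without restraint 1 and control 3. For Ina the values were negative, with r = -0.45 to Nefh (exact permutation p = 0.25, adjusted 0.417; rho = -0.70, exact permutation p = 0.0394, adjusted 0.154; r = -0.66 without restraint 1 and restraint 2) and r = -0.44 to Nefl (exact permutation p = 0.229, adjusted 0.417; rho = -0.36, exact permutation p = 0.35, adjusted 0.462; r = -0.78 without restraint 1 and control 5). Prph had r between -0.61 and 0.33 with the others, and none of these pairs passed either (adjusted exact permutation p of at least 0.235). The lowest, -0.61 for Ina and Prph (rho = -0.36), was -0.23 without restraint 4 and 0.03 without restraint 4 and control 2. Of 40 relations of members to library measures and marker lists, none passed the adjustment. The one with the smallest p was Ina with the oligodendrocyte markers, at r = -0.75 (exact permutation p = 0.00507, adjusted 0.203) and rho = -0.66 (exact permutation p = 0.0486, adjusted 0.773), with r = -0.71 without restraint 4 and restraint 3. The 2 libraries high in Ina, restraint 4 and control 2, also had the highest value in their group of a library measure of length dependence, the slope on log2 exon length of each gene's log2 CPM minus its mean over all libraries. The slopes were 0.0971 and 0.0657 log2 units per doubling of length, against -0.0674 to 0.0672 in the other restraint libraries and -0.071 to -0.0027 in the other controls. Over the 10 libraries the slope and Ina, each set against its group mean, had r = 0.73 (exact permutation p = 0.0265, adjusted over 40 relations 0.531) and rho = 0.49 (exact permutation p = 0.19, adjusted 0.773), and r was 0.21 without those 2 libraries. For Nefl and the slope r was -0.71 (exact permutation p = 0.041, adjusted 0.531) and rho -0.70 (exact permutation p = 0.0465, adjusted 0.773), with r = -0.74 without the same 2 libraries. For Nefh and the slope r was -0.66 (exact permutation p = 0.0899, adjusted 0.649) and rho -0.59 (exact permutation p = 0.142, adjusted 0.773). Without the same 2 libraries this r was -0.56. Nefm and Prph had r = -0.22 and r = -0.56 with the slope over the 10 libraries. With the length trend removed from each library the log2 fold change of Nefh was 0.56.

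**Figure D4:**
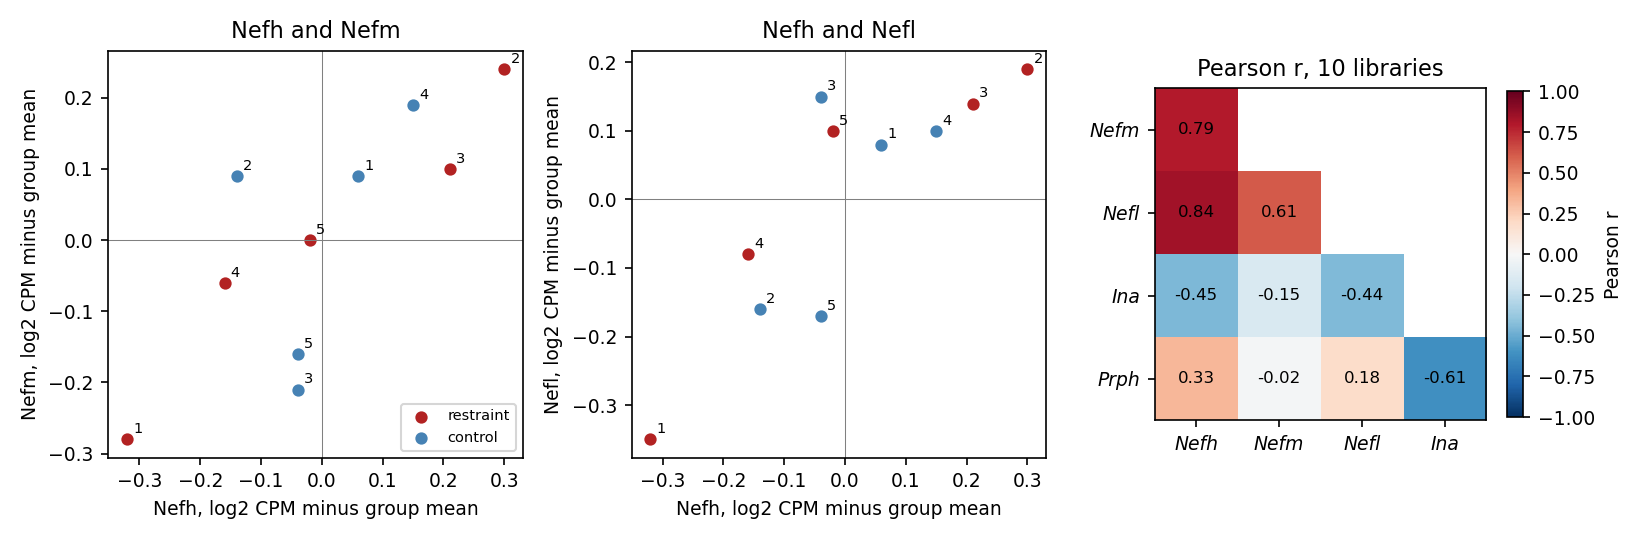
Left and middle, Nefm and Nefl against Nefh, each as log2 CPM minus its group mean, 1 point per library labelled by replicate number (restraint and control in 2 colours). Right, Pearson r for the 10 pairs of members over 10 libraries, from -0.61 for Ina and Prph to 0.84 for Nefh and Nefl.

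Among 10027 other named genes with a mean log2 CPM above 3, those whose deviations from the group means were most like those of Nefh over the 10 libraries were Mrpl24, a mitochondrial ribosomal protein gene (r = 0.947), Taok1, a protein kinase gene (0.946), Fgf9, a growth factor gene (0.945), Uap1, an enzyme gene of hexosamine synthesis (0.935), and Got1, an aminotransferase gene (0.929). These are the top of a ranking over many genes and libraries that share depth and composition, so no p is given. The log2 fold changes of the 5 ran from -0.05 (Got1) to 0.15 (Uap1), each with an SE of at most 0.10, against 0.58 for Nefh. Nefm was most like Polr3k (r = 0.937), Palm3 (0.933) and Fbxl14 (0.921), and Nefl most like Rab21 (0.951), Pmaip1 (0.946) and Tvp23b (0.943). Ina was most like Ncoa1 (0.976), Dusp7 (0.974) and Rasd2 (0.973), and Prph most like Galk1 (0.921), Twf2 (0.915) and Irx5 (0.914).

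Peripherin and the neurofilaments are also made by other neurons near the VTA, such as motor neurons of the oculomotor nucleus and serotonin neurons of the raphe. Of 9 cholinergic and motor neuron markers, 6 had enough counts to be tested, and their summed level was 11.1 to 33.2 CPM after restraint and 15.1 to 23.2 CPM in controls. Chat, the acetylcholine synthesis gene, stood at 1.28 ± 0.835 CPM after restraint and 1.53 ± 0.646 CPM in control libraries (SD, n = 5 each), Isl1 at 2.07 ± 0.866 CPM after restraint and 3.28 ± 1.69 CPM in controls, and Mnx1 had 0 counts in every library. The 6 genes listed as serotonin neuron markers summed to 98.7 to 210 CPM after restraint and 127 to 239 CPM in controls. Within the restraint group Tph2, the serotonin synthesis gene, stood at 7.35 and 7.79 CPM in restraint 3 and 4, against 56 to 97.4 CPM in restraint 1, 2 and 5, and at 40.8 to 119 CPM in controls, and the serotonin transporter gene Slc6a4 was also lowest in those 2 libraries (0.91 and 2.57 CPM). In restraint 3 most of the summed 98.7 CPM was Htr1a, Gata3 and Lmx1b (36.9, 29.6 and 23.9 CPM). In restraint 3 and 4 Lmx1b stood at 23.9 and 23.7 CPM and Gata3 at 29.6 and 26.1 CPM. Neither gene was lowest of its group in the libraries where Tph2 was low. The sum and the median of the list therefore do not stand for Tph2 and Slc6a4. Whether Lmx1b and Gata3 came from serotonin neurons here was not tested. The median log2 fold change was -0.20 for the cholinergic and motor list (1 of 6 positive) and -0.15 for the serotonin list (3 of 6 positive). Of these 12 tested genes, 0 were called in either direction with edgeR or with DESeq2, and 0 had an unadjusted p under 0.05. DESeq2 set no adjusted p for 4 cholinergic and motor markers and 1 serotonin marker. Of all genes, edgeR called 0.00542% higher and 0.0163% lower, and 5.64% and 6.04% had such an unadjusted p. DESeq2 called 1.16% of those it tested higher and 1.6% lower. With so few calls anywhere, 0 of 12 does not show that these markers were stable. The log2 fold changes of Tph2, Slc6a4 and Fev were -0.58 ± 0.53, -0.56 ± 0.53 and -0.31 ± 0.68 (SE). Those of Htr1a, Lmx1b and Gata3 were 0.15 ± 0.12, 0.01 ± 0.16 and 0 ± 0.17 (SE).

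Other neuron and glia markers were present at higher levels. The 12 dopamine neuron markers summed to 2260 to 3140 CPM after restraint and 2000 to 2760 CPM in controls, with a median log2 fold change of 0.30, 10 of 12 positive. En1, a homeobox transcription factor gene, stood at 55.1 ± 4.89 CPM after restraint and 37.2 ± 5.91 CPM in controls (log2 0.57 ± 0.11). DESeq2 called it higher (adjusted p = 0.000338) and edgeR did not (adjusted p = 0.0662). It was the 1 marker of this list with all 5 restraint libraries above all 5 controls, as in 1.25% of all genes. The negative fold changes were those of Ddc (-0.05 ± 0.12) and Slc6a3 (-0.03 ± 0.16), genes of dopamine synthesis and transport. The list had 0 members called with edgeR, 7 at an unadjusted p under 0.05, all higher, and 3 called higher with DESeq2, where 5.64% of all genes were higher at that p, 1.16% were called higher with DESeq2 and 49.6% had a positive fold change. The 12 fast-spiking and GABA neuron markers summed to 2480 to 3040 CPM after restraint and 2330 to 2990 CPM in controls (median 0.04, 7 of 12 positive, 0 called with edgeR or DESeq2, 1 at an unadjusted p under 0.05). The GABA marker Pvalb, a calcium buffer gene of fast-spiking neurons, stood at 205 ± 43.2 CPM after restraint and 177 ± 33.8 CPM in control libraries (SD, n = 5 each; log2 0.21 ± 0.14). The 4 red nucleus and glutamate neuron markers summed to 378 to 498 CPM after restraint and 429 to 450 CPM in controls (median 0.18, 2 of 4 positive, 0 called with edgeR or DESeq2, 1 at an unadjusted p under 0.05). That 1 was Pou4f1, a transcription factor gene of red nucleus neurons, at 0.42 ± 0.17 (edgeR adjusted p = 0.345). Most of the sum of this list was Slc17a6, at 332 to 471 CPM after restraint and 381 to 419 CPM in controls. The sum does not show the spread of scarcer genes. Slc17a7 had 6.44 to 47.4 CPM after restraint and 3.9 to 16.5 CPM in controls (log2 0.79 ± 0.48). Slc17a8 had 3.37 to 23.2 CPM after restraint and 6.72 to 25.9 CPM in controls (log2 -0.09 ± 0.46). Astrocyte markers summed to 4230 to 5280 CPM after restraint and 3710 to 4270 CPM in controls (median 0.16), and oligodendrocyte markers to 1480 to 2040 CPM after restraint and 1550 to 1890 CPM in controls (median 0.09). Microglia markers summed to 22.3 to 30.4 CPM after restraint and 22.3 to 35.0 CPM in controls (median -0.02), and vascular markers to 14.4 to 23.6 CPM after restraint and 12.2 to 18.3 CPM in controls (median 0.31). Of the 8 genes in each of these 4 lists, edgeR called 0, while DESeq2 called Gfap and 1 oligodendrocyte marker higher but set no adjusted p for 5 microglia and 7 vascular markers, and an unadjusted p under 0.05 was reached, always higher, by 1 astrocyte, 3 oligodendrocyte, 0 microglia and 3 vascular markers. The part of any of these cell types in the Nefh level was not tested. Over the 10 libraries, with group means removed, Nefh and the mean of the dopamine neuron markers had r = -0.06 (exact permutation p = 0.913, adjusted over 40 relations 0.99) and rho = 0.32 (exact permutation p = 0.435, adjusted 0.921). Without restraint 2 and control 3 this r was 0.74, so the value rests on those libraries. Such shifts were not particular to the dopamine list. For Nefh and the fast-spiking and GABA markers r was 0.17 (exact permutation p = 0.54, adjusted 0.908), and 0.63 without control 5 and control 2. For Nefh and the red nucleus and glutamate markers r was 0.15 (exact permutation p = 0.736, adjusted 0.936), and -0.61 without restraint 2 and restraint 4. No relation of Nefh to a marker list passed the adjustment.

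Genes that work with the filaments were described by lists of 5 kinds, with 0 of 92 tested genes called with edgeR in either direction. At an unadjusted p under 0.05, 10 were higher and 3 lower (10.9% and 3.26%, against 5.64% and 6.04% of all genes). DESeq2 called 1 higher and 3 lower (1.09% and 3.26% of the 92, against 1.16% and 1.6% of all genes it tested) and set no adjusted p for 5 of the 92. Of the 92, 58 had a positive fold change (63.0%, against 49.6% of all genes). Among 11 other intermediate filament genes tested of 12, the median log2 fold change was 0.01 and 6 were positive. Gfap had 2800, 2770, 2130, 2470 and 2180 CPM in restraint 1 to 5, against 2080, 1770, 2000, 1890 and 1860 CPM in control 1 to 5. All 5 restraint libraries lay above the controls (log2 0.37 ± 0.09; edgeR adjusted p = 0.118), and DESeq2 called it higher (adjusted p = 0.0126). Lmnb2, a nuclear lamin gene named for this separation after its values were seen, had all 5 restraint libraries below the controls, at 23.4 ± 1.36 CPM after restraint and 25.9 ± 1.29 CPM among controls (log2 -0.15 ± 0.08; edgeR adjusted p = 0.523). The other genes of this list with the smallest p were scarce, Bfsp2 of lens filaments (0.31 ± 0.15) and the keratin genes Krt10 (-0.60 ± 0.29) and Krt18 (0.46 ± 0.23), with at most 6.73 CPM in any library. Vim, the vimentin gene, stood at 103 ± 35.6 CPM after restraint and 76.0 ± 34.3 CPM in control libraries (SD, n = 5 each).

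Of 17 crosslinkers and microtubule partners tested, the median was 0.06 and 12 were positive. Tubb2a, a beta-tubulin gene, had 682, 524, 602, 525 and 674 CPM in restraint 1 to 5, against 718, 732, 837, 793 and 806 CPM in control 1 to 5. The restraint libraries all lay below the controls (log2 -0.37 ± 0.09; edgeR adjusted p = 0.119), and DESeq2 called it lower (adjusted p = 0.0126). Map1b, a microtubule-associated protein gene of growing axons, stood at 994 ± 142 CPM after restraint and 785 ± 141 CPM in controls (log2 0.34 ± 0.12; edgeR adjusted p = 0.258). Gap43, a growth cone protein gene, differed by 0.19 ± 0.09 and Tuba4a, an alpha-tubulin gene, by 0.14 ± 0.08.

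Of 28 kinases and phosphatases that act on neurofilament tails, with their regulators, the median was 0.05 and 17 were positive. Cdk5, which encodes a main kinase of the heavy subunit's tail, stood at 143 ± 11.8 CPM after restraint and 145 ± 7.19 CPM in controls, and its activator gene Cdk5r1 at 202 ± 4.44 CPM after restraint and 214 ± 8.69 CPM in control libraries (SD, n = 5 each). Prkca and Csnk1e, both kinase genes, differed by 0.25 ± 0.09 and 0.20 ± 0.08, and Prkaca, a catalytic subunit of protein kinase A, by -0.15 ± 0.07.

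Of 20 genes of axonal transport, which carries neurofilaments along the axon, the median was 0.07 and 15 were positive. Those with the smallest p were the motor and adaptor genes Kif3a (0.19 ± 0.08), Klc1 (0.19 ± 0.09), Bicd2 (0.20 ± 0.10) and Kif5c (0.14 ± 0.07). Kif5a, a neuronal kinesin gene, stood at 529 ± 120 CPM after restraint and 543 ± 122 CPM in control libraries (SD, n = 5 each). Of 16 genes of turnover and mRNA binding, the median was 0.02 and 8 were positive. Sod1, which encodes superoxide dismutase, an enzyme whose mutant forms disturb neurofilaments in motor neuron disease, had a lower mean, called by DESeq2 and not by edgeR (395 ± 44.9 CPM after restraint and 502 ± 49.1 CPM in controls; log2 -0.35 ± 0.09; edgeR adjusted p = 0.159; DESeq2 adjusted p = 0.0261). Stub1, a ubiquitin ligase gene, differed by 0.27 ± 0.10, and Bag3, a co-chaperone gene, by 0.44 ± 0.16. Trim2, a ubiquitin ligase gene for the light subunit, differed by -0.13 ± 0.07.

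**Figure D5:**
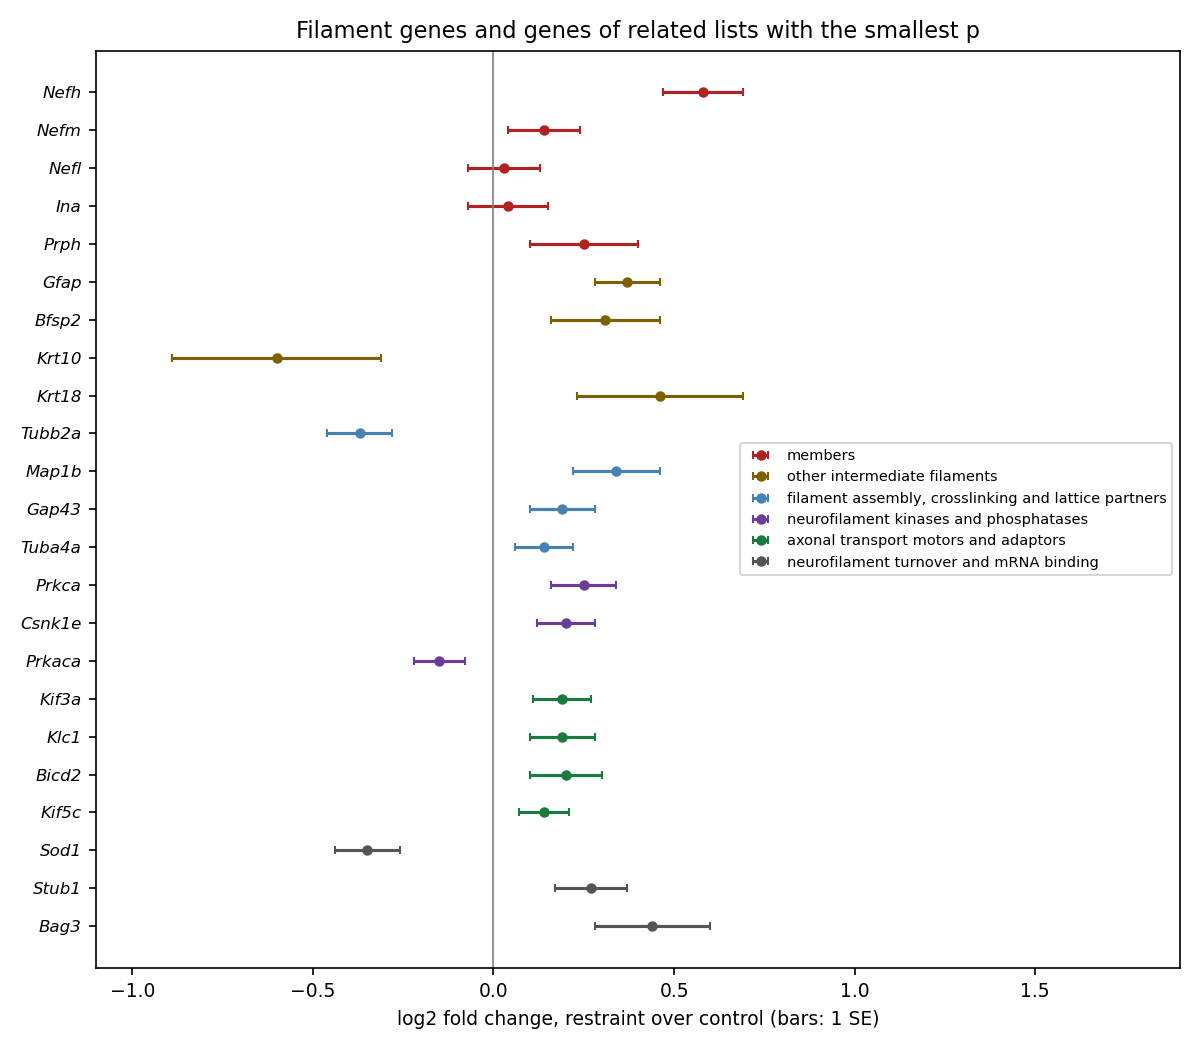
Log2 fold change of restraint over control (horizontal axis) with 1 SE for the 5 filament genes and for genes with the smallest p in each of 5 related lists, coloured by list. Nefh lies at 0.58, the other 4 members lie between 0.03 and 0.25, and Gfap at 0.37 and Tubb2a at -0.37 are the list genes with the smallest adjusted p from DESeq2.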

How the data were processed

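Raw counts per gene came from the authors' deposited table of 10 libraries. Per the file headers, they were made with featureCounts 2.0.3 on the exons of GENCODE annotation M30, whose coordinates are GRCm39, with paired-end input, no option that counts read pairs and no strand option. FastQC, Trimmomatic, STAR and the build mm10 are named in the submitters' processing notes, so the alignment build and the annotation build differ as stated. Counts of 1 to 30 were mostly even, so mates of a pair were largely counted apart, and halved counts were tried. Gene length is the merged exon length as deposited.

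Groups followed the sample titles. The members and the lists of related genes were chosen with earlier results of these data known. Genes kept by filterByExpr (minimum count 10, minimum total 15) were fitted with edgeR 4.0.16 (R 4.3.3; TMM, quasi-likelihood, group as the only term), and p-values were adjusted over all 18440. DESeq2 1.42.0, limma 3.58.1 (voom), 3 other scalings, 2 other filters, robust estimation, removal of the length trend and each library left out in turn were alternatives. The fits were checked on simulated data. Intervals are 95%, from the SE. Log2 CPM used a prior count of 2. Text names come from a rule: the members, the 4 genes of each related list with the smallest edgeR p, the genes most like each member, and from marker lists the most abundant gene and the 2 with the smallest p, of which those bearing on the members are given. Some genes that the rule names are not reported here. Th, Ddc, Slc6a3, Mnx1, Slc6a4, Gata3, Lmx1b, Vim, Lmnb2, Cdk5, Cdk5r1, Kif5a and Trim2 were added after their values were seen. No libraries were duplicates: the lowest chi-square per gene between libraries was 34.4. Same-numbered libraries of the groups did not deviate together, as described under the processing alternatives. Depth of 56082358 to 86584968 counts leaves little counting error for the members, so the spread between libraries sets their precision.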

Additional observations from a re-analysis of the deposited data

Results flagged for a closer look

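For 166 genes (members, list genes and markers) and 5 ratios between members, 342 groups of 5 libraries were examined for 1 library far from the other 4 relative to the range of the group. This held in 21 groups, where chance alone gives such a gap in about 1 in 20 groups. None of the 5 filament genes or their ratios was among them.

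Control 2, the control with the highest Ina level, gave 12 of the 21 and was the high library in each one but Ppp2ca, where it was the low one. It had 238 CPM of Dst and 911 CPM of Map1a, both cytoskeletal linker or microtubule genes. It had 475 CPM of Ppp2ca, 109 CPM of Gsk3a and 413 CPM of Mapk10, which encode a phosphatase and kinases that act on neurofilaments. Kif5a stood at 755 CPM, Arhgef28 at 15.9 CPM, Lmnb2 at 28.2 CPM and Sync at 1.61 CPM in that library. Among the markers of fast-spiking and GABA neurons it had 14.9 CPM of Kcna1, 279 CPM of Kcnc1 and 217 CPM of Slc32a1.

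Restraint 1 was the low library for the keratin gene Krt10 (0.577 CPM) and the high one for the desmin gene Des (1.33 CPM). Restraint 2 was high for the kinase gene Mapk14 (78.8 CPM) and low for the chaperone gene Hspa8 (2300 CPM). Control 5 was low for Gad1 (428 CPM) and high for Pitx3 (6.96 CPM) and Pecam1 (1.53 CPM). Control 4 was high for Foxa2 (15.8 CPM), and control 1 was high for Mog (26.7 CPM).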

How the results depend on the processing

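The fold change of Nefh lay between 0.49 (without restraint 2) and 0.65 (without restraint 1) in all 21 alternatives, among them halved counts, chosen after seeing the data, with 0.57. Halving scales all libraries alike, so that alternative could hardly move a fold change. The edgeR call of Nefh moved: with the filter of at least 1 count its adjusted p was 3.96e-05, without restraint 5 it was 0.0333 and without restraint 1 it was 0.0496, while it was 0.298 with the replicate block and otherwise 0.05 to 0.207 with edgeR. Leaving out each library in turn gave 0.07 to 0.21 for Nefm, -0.02 to 0.12 for Nefl, -0.05 to 0.13 for Ina and 0.15 to 0.37 for Prph.

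Counts of genes called over the whole table moved with the setting. Higher and lower calls were 5 and 12 with library size only, 103 and 199 with at least 1 count, 139 and 192 with DESeq2, and 0 and 0 with robust estimation. Leaving out 1 library gave 0 to 9 higher and 0 to 83 lower calls. They were 9 and 83 without restraint 5, 4 and 16 without control 5, 2 and 15 without restraint 2, 2 and 0 without restraint 1, and 0 and 0 without any of the others. In the related lists 1 gene was called higher and 3 lower with at least 1 count and with DESeq2, and 0 elsewhere. The causes were not tested.

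With the replicate block 0 genes were called higher and 0 lower, and Nefh was 0.56. The deviations of same-numbered libraries correlated at -0.16 to 0.03, so the numbers were not taken as pairs. The paired form of the co-variation was not run because 5 differences are too few.

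Taking out shared exon bases moved the mean level over 10 libraries to 121 CPM per kilobase for Nefm, 335 for Nefl and 125 for Ina, and the 3-exon model moved Nefm to 170. The alternative's own construction, shorter lengths, causes this. For co-variation, Nefh and Nefl passed with RLE size factors (r = 0.84, adjusted exact permutation p = 0.0493), and with the length trend removed Nefh and Nefm (0.85) and Nefh and Nefl (0.83) passed (adjusted exact permutation p = 0.0281 for both). Leaving out each library gave r of 0.65 to 0.89 for Nefh and Nefm, 0.70 to 0.91 for Nefh and Nefl and 0.32 to 0.89 for Nefm and Nefl. Nefh and Nefm passed without control 2, and all 3 pairs passed without control 3.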
